A study of Mus musculus with 20 samples.

Results

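The goblet cell genes described here are 9 of the 46329 gene rows counted in every library of a mouse colorectal tumor study: Muc2, Clca1, Fcgbp, Tff3, Zg16, Spink4, Agr2, Bcas1 and Bcas1os2. They were chosen by symbol, as secreted products and secretory genes of goblet cells, together with Bcas1os2, the transcript annotated opposite Bcas1, and the list was drawn up with earlier results of these data known. RNA was sequenced from colorectal tumors and from adjacent normal tissue of C57BL/6J mice at 100 days of age, with 5 libraries in each of 4 groups and 20 in all. Erbb2-deficient mice were ApcMin/+, Erbb2f/f and carried Tg(Vil1-cre), and their controls were littermates that were ApcMin/+ and Erbb2f/f without cre. Mice of both genotypes therefore carried the tumor-prone Apc allele and the floxed receptor allele, and the genotypes differed in the cre transgene as well as in Erbb2. The Vil1 promoter is active in intestinal epithelium, so immune, muscle and stromal cells in the samples keep the floxed allele. The study asked what the receptor tyrosine kinase ERBB2 does in colorectal cancer progression in this model. Whether tumor and adjacent samples of one number share a mouse is not labelled, and the p-values cover only variation among these libraries, which may be partly technical.

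Goblet cells are secretory cells of the intestinal epithelium that make the mucus layer, which keeps luminal bacteria away from the tissue. The mucin Muc2 is folded in the endoplasmic reticulum, linked into polymers, stored in granules and released with smaller proteins that process, cross-link or accompany the gel. The lineage forms when Notch signalling is low and the transcription factors Atoh1, Spdef and Klf4 act, and goblet cells are commonly reduced in intestinal adenomas.

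Levels are given as CPM, the count of a row per 1000000 counts of the library's total over the 7119 tested rows after TMM scaling (trimmed mean of M values). Each library held 1071737 to 1944309 counts on gene rows, which were 2.51% to 3.45% of its reads, while 78.6% to 85.1% of reads fell on no annotated feature. The libraries were stranded, and the rows behaved as if counted against the opposite strand: ND6, the mitochondrial protein gene encoded on the strand opposite the others, exceeded the other 12 mitochondrial protein rows together in 20 of 20 libraries, and the Gapdh row held 0 to 12 counts. A symbol below therefore names a row, and where no gene is annotated opposite it, reads of the gene and reads antisense to it cannot be told apart. The targeted gene could not be checked this way, since its own row had only 1 to 22 counts in any library. Of the 9 goblet rows, all passed the filter on low counts, with means over libraries from 12.6 counts (Bcas1) to 232 counts (Muc2). Together they made up at most 0.117% of a library's counts, so each value below rests on few reads. Control tumor 2 had 0 counts in all 9 rows, 0 counts of the epithelial genes Epcam and Krt8, and a median rank correlation of 0.636 with the other control tumors, against 0.820 to 0.926 within groups for the other 19 libraries. Control tumor 3 was the highest control tumor in all 9 rows. Control tumor 3 held 92 counts of Epcam and 129 of Krt8. Values of the goblet rows that rest on these libraries are given with and without them. Control tumor 3 stands out by these same 9 rows, so leaving it out makes a fall easier to call. The p-values of fits without it describe how far the calls rest on that library and are not separate support for a fall.

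In Erbb2-deficient mice, 6 of the 9 goblet rows fell in tumors relative to adjacent tissue at an adjusted p under 0.05 (edgeR quasi-likelihood test, adjusted over 7119 rows), and none rose. These were Clca1, Fcgbp, Tff3, Zg16, Bcas1 and Bcas1os2, against a background of 14.5% of all tested rows called lower. In control mice, 4 of the 9 fell, namely Clca1, Fcgbp, Tff3 and Bcas1os2, and none rose, against a background of 10.9%. The median log2 fold change of the 9 rows was -1.99 in Erbb2-deficient mice, where that of all tested rows was -0.06. In control mice it was -1.94, where that of all tested rows was 0.07. Tumor and adjacent libraries did not overlap in 6 of the 9 rows in Erbb2-deficient mice, where 13.6% of all rows separated with tumors lower and 11.9% with tumors higher. They did not overlap in 3 of the 9 in control mice, where 6.66% of all rows separated with tumors lower and 3.96% with tumors higher. Without control tumors 2 and 3, 8 of the 9 rows fell in control mice, against 17.3% of rows called lower. In Erbb2-deficient mice 7 of the 9 then fell, against 18.8%. Control tumor 3 was the highest control tumor in these same rows, so its removal favours such calls. Spink4 was the row that did not fall in either genotype in either fit. In whole tissue, fewer goblet cells and less RNA per goblet cell cannot be told apart.

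**Figure D1:**
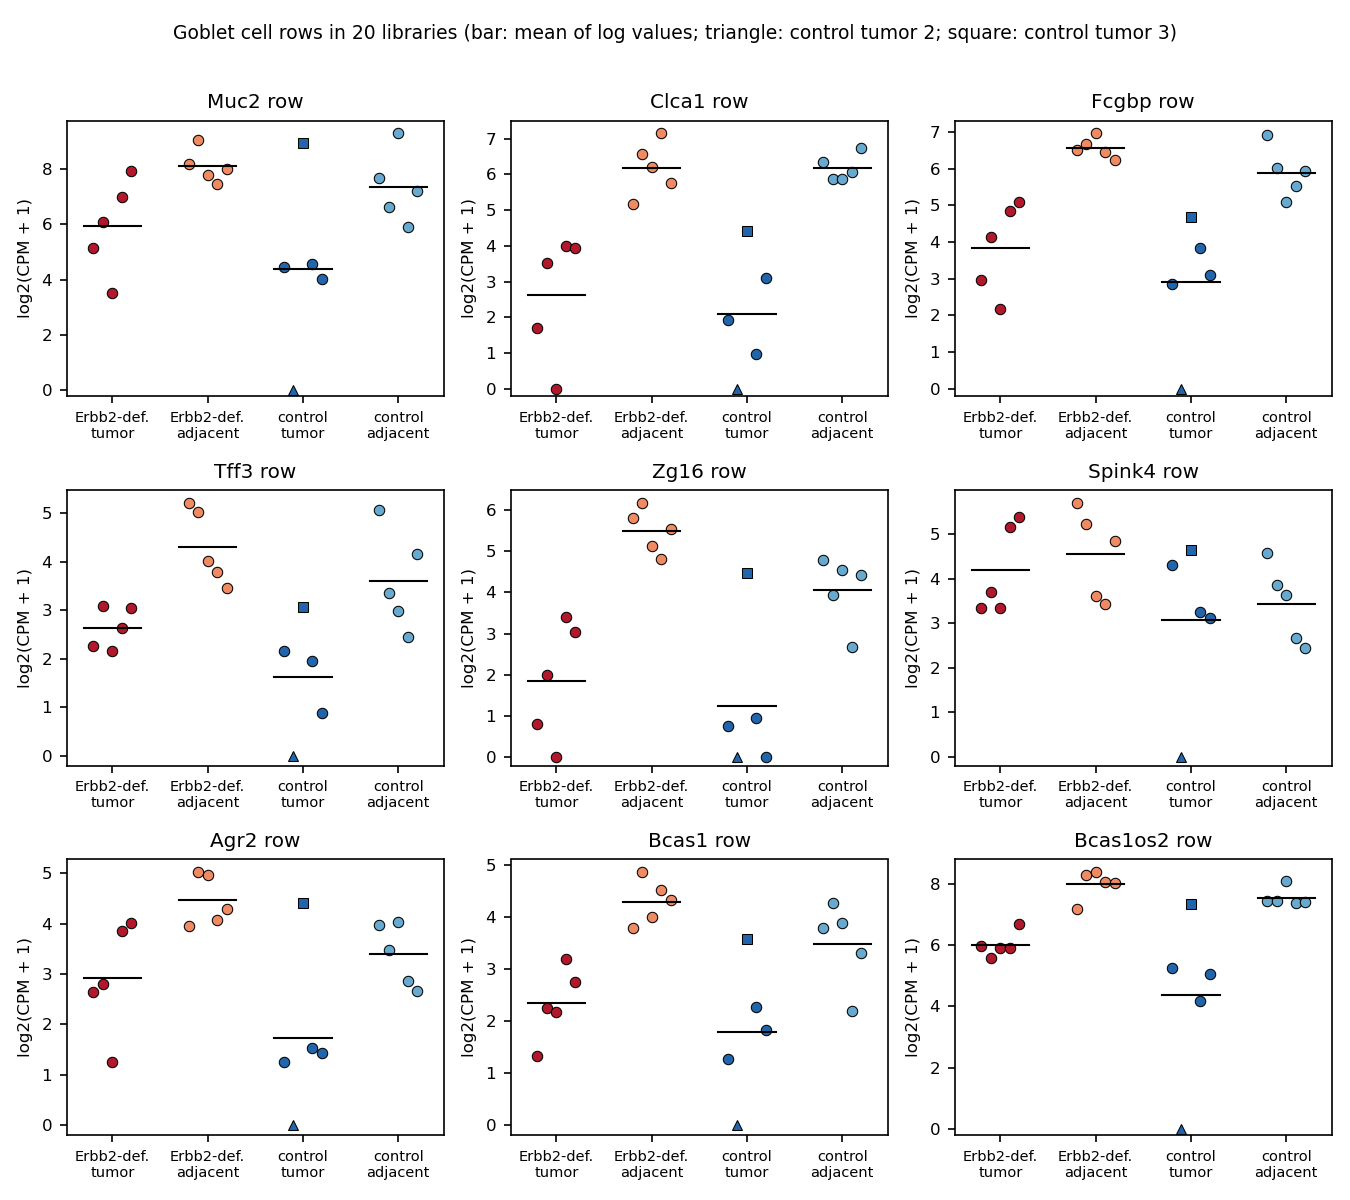
Level of each of the 9 goblet rows in 20 libraries, as log2 of CPM plus 1, by group; each point is a library and the bar is the mean of the log values. Control tumor 2 (triangle) lies at 0 in every panel and control tumor 3 (square) is the highest control tumor in every panel, while the Spink4 panel shows overlapping groups.

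Muc2 encodes the gel-forming mucin of the colon. Its row held 34.8, 67.1, 10.5, 124 and 241 CPM in the 5 Erbb2-deficient tumors, and 292, 533, 219, 172 and 252.04 CPM in the 5 adjacent samples of that genotype. In control mice it held 20.9, 0, 483, 22.8 and 15.2 CPM in tumors 1 to 5, and 202, 96.6, 623, 59.2 and 148 CPM in adjacent samples. The groups overlapped in both genotypes, through tumor 5 in Erbb2-deficient mice and tumor 3 in control mice, and the spread was wide, with a mean of 95.6 ± 92.0 CPM in Erbb2-deficient tumors (SD, n = 5). The log2 fold change of tumor over adjacent tissue was -1.62 ± 1.02 (SE) in Erbb2-deficient mice (adjusted p = 0.248) and -1.06 ± 1.01 in control mice (adjusted p = 0.482), and neither passed the test. Without control tumors 2 and 3, the 3 remaining control tumors averaged 19.7 ± 3.95 CPM, all below the lowest control adjacent sample, and Muc2 fell with a log2 fold change of -3.53 ± 0.94 (adjusted p = 0.00867). Without control tumor 3 alone, 8 of the 9 rows fell in control mice, against 14.5% of all rows called lower in that fit, and without control tumor 2 alone 4 fell, against 13.6%. In Erbb2-deficient mice, whose spread is estimated in the same fit, 7 of the 9 fell without control tumor 3, against 14.2%.

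Clca1 encodes a secreted metalloprotease that processes Muc2 in the mucus. The Clca1 row held 2.27, 10.4, 0, 14.9 and 14.4 CPM in Erbb2-deficient tumors, and 34.9, 93.1, 73.0, 141 and 53.6 CPM in the adjacent samples. It held 2.79, 0, 20.2, 0.952 and 7.62 CPM in control tumors, and 80.0, 58.0, 57.4, 65.4 and 106 CPM in control adjacent samples. Every tumor lay below every adjacent sample in both genotypes. The log2 fold change was -3.22 ± 0.73 in Erbb2-deficient mice (adjusted p = 0.00266) and -3.53 ± 0.76 in control mice (adjusted p = 0.00260). In control mice it was -4.23 ± 0.77 without control tumors 2 and 3 (adjusted p = 0.000368) and -4.60 without control tumor 3 alone.

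Fcgbp encodes a large secreted protein that is found in the mucus. Its row held 6.80, 16.4, 3.49, 27.5 and 33.1 CPM in Erbb2-deficient tumors, and 89.6, 101, 124, 87.0 and 74.1 CPM in their adjacent samples. In control mice it held 6.28, 0, 24.8, 13.3 and 7.62 CPM in tumors, and 119, 63.8, 32.9, 44.8 and 59.6 CPM in adjacent samples. The groups did not overlap in either genotype, although control tumor 3 at 24.8 CPM came close to control adjacent sample 3 at 32.9 CPM. Fcgbp fell by 2.44 ± 0.59 on the log2 scale in Erbb2-deficient mice (adjusted p = 0.00456) and fell by 2.62 ± 0.62 in control mice (adjusted p = 0.00521). The log2 fold change in control mice without control tumors 2 and 3 was -2.83 ± 0.57, and without control tumor 3 alone it was -3.22.

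Zg16 encodes a small lectin that binds bacterial peptidoglycan. Its row held 0.756, 2.98, 0, 9.68 and 7.20 CPM in Erbb2-deficient tumors, and 55.3, 71.5, 34.1, 27.2 and 45.6 CPM in adjacent samples. It held 0.698, 0, 21.2, 0.952 and 0 CPM in control tumors, and 26.7, 14.3, 22.2, 5.38 and 20.5 CPM in control adjacent samples. The Erbb2-deficient groups were separate, while in control mice tumor 3 lay within the adjacent range and the other 4 tumors lay below it. Zg16 fell by 3.48 ± 0.86 on the log2 scale in Erbb2-deficient mice (adjusted p = 0.00509). In control mice the log2 fold change was -1.98 ± 0.87 (adjusted p = 0.110), and without control tumors 2 and 3 it was -4.80 ± 0.97 (adjusted p = 0.000755).

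Tff3 encodes the intestinal trefoil peptide, which is secreted with the mucin and acts in epithelial repair. Its row ranged over 3.49 to 7.46 CPM in Erbb2-deficient tumors and 9.92 to 36.1 CPM in their adjacent samples, which did not overlap. It ranged over 0 to 7.36 CPM in control tumors and 4.48 to 32.6 CPM in control adjacent samples, which did. Tff3 fell by 1.94 ± 0.58 on the log2 scale in Erbb2-deficient mice (adjusted p = 0.0161) and fell by 2.22 ± 0.64 in control mice (adjusted p = 0.0178). Its value in control mice without control tumors 2 and 3 was -2.46 ± 0.69, and without control tumor 3 alone it was -2.83. Each of these calls rested on adjacent sample 1, the highest of its group, since the adjusted p was 0.0525 without Erbb2-deficient adjacent sample 1 and 0.0720 without control adjacent sample 1.

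Spink4, which encodes a Kazal-type serine peptidase inhibitor of goblet cells, passed the test in neither genotype. Its row held 9.07, 11.9, 9.08, 35.0 and 41.1 CPM in Erbb2-deficient tumors, and 51.2, 36.6, 11.1, 9.84 and 27.8 CPM in their adjacent samples. It held 18.8, 0, 23.9, 8.57 and 7.62 CPM in control tumors, and 22.7, 13.4, 11.5, 5.38 and 4.45 CPM in control adjacent samples. In both genotypes most tumors lay inside the adjacent range. The log2 fold change was -0.37 ± 0.64 in Erbb2-deficient mice (adjusted p = 0.703) and 0.05 ± 0.69 in control mice (adjusted p = 0.966), and its sign in control mice was negative without any one of 4 of the 20 libraries. With control tumors 2 and 3 left out it was -0.32 ± 0.51 in Erbb2-deficient mice and 0.05 ± 0.66 in control mice.

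**Figure D2:**
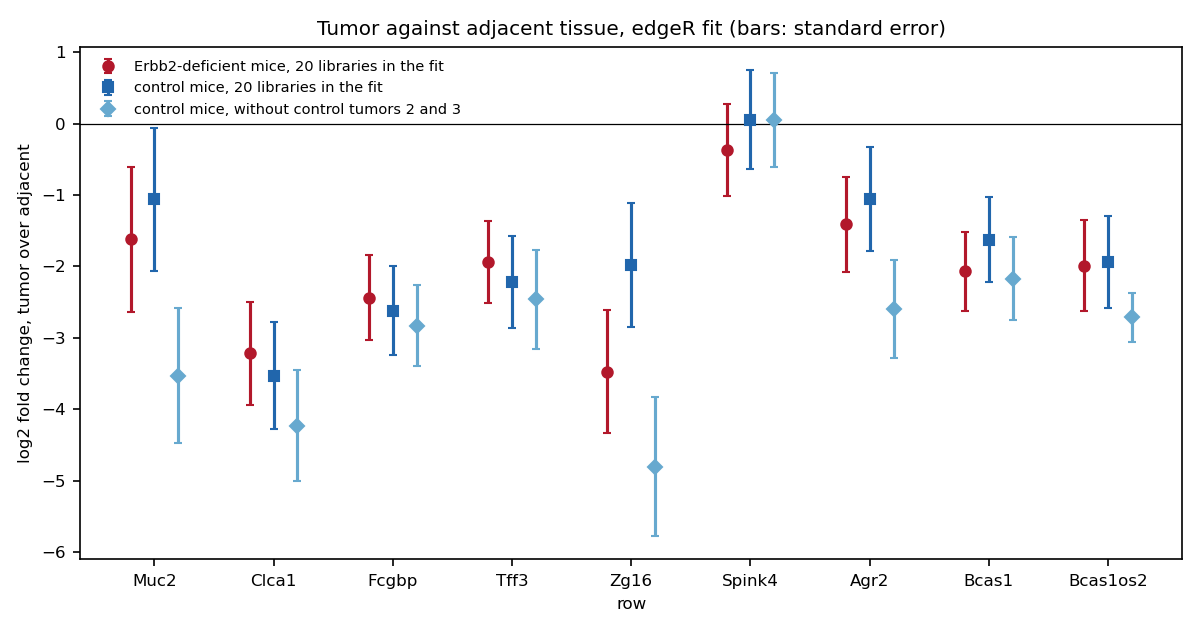
Log2 fold change of tumor over adjacent tissue for the 9 goblet rows, with its standard error, in Erbb2-deficient mice, in control mice, and in control mice without control tumors 2 and 3. The Clca1, Fcgbp and Zg16 values lie far below 0 and Spink4 lies near 0, and removal of the pair of libraries moves Muc2 from -1.06 to -3.53 and Zg16 from -1.98 to -4.80.

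Agr2 encodes a protein disulfide isomerase of the endoplasmic reticulum that is needed to make Muc2. Its row held 5.29, 5.97, 1.40, 13.4 and 15.1 CPM in Erbb2-deficient tumors, and 14.5, 31.6, 30.2, 15.9 and 18.5 CPM in their adjacent samples. It held 1.40, 0, 20.2, 1.90 and 1.69 CPM in control tumors, and 14.8, 10.1, 15.3, 6.27 and 5.34 CPM in control adjacent samples. Tumor 5 alone overlapped the adjacent range in Erbb2-deficient mice, and tumor 3 alone exceeded the adjacent range in control mice. The log2 fold change was -1.41 ± 0.66 in Erbb2-deficient mice (adjusted p = 0.118) and -1.06 ± 0.73 in control mice (adjusted p = 0.318). Without control tumors 2 and 3, Agr2 fell in both genotypes, with log2 fold changes of -1.34 ± 0.43 in Erbb2-deficient mice (adjusted p = 0.0168) and -2.60 ± 0.69 in control mice (adjusted p = 0.00630).

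Bcas1 and Bcas1os2 lie on opposite strands of chromosome 2. Bcas1 is best known as a protein of myelinating oligodendrocytes and is also listed among goblet cell genes, while Bcas1os2 is an annotated transcript with no protein assigned here. The GENCODE annotation of GRCm38 served for names, overlaps and the exon lengths behind the levels per kilobase. The reads were aligned to mm39, and the exon lengths used in counting may differ. In the GRCm38 annotation, the exons of Bcas1os2 cover 1174 bases and those of Bcas1 3775 bases. They share 34 bases, all in coding sequence of Bcas1 and all in exon 6 of the 8 exons of its annotated transcript, at chr2:170378522-170378756 on the plus strand. The exon is shown with the shared bases in capitals, beside the 114-base stretch of the Bcas1-203 messenger RNA that holds their complement. It is where exons of the pair overlap. If counting was against the opposite strand, unspliced Bcas1 RNA across other Bcas1os2 exons would also fall in the Bcas1os2 row. The origin of the reads in that row was not tested.
Bcas1os2 exon 6: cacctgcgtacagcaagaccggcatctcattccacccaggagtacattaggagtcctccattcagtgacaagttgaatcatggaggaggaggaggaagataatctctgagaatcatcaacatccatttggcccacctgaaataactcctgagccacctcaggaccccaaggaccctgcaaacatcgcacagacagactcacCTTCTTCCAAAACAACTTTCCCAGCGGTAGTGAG
Bcas1-203 stretch: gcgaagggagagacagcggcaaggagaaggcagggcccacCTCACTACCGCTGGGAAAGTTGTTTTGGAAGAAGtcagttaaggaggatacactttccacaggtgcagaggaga
The complement occurs in 4 annotated Bcas1 transcripts. Another transcript opposite Bcas1, Bcas1os1, shares 440 exon bases with it and is not among the counted rows, so it could not be analysed.

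The Bcas1os2 row was the higher of the pair. It held 62.0, 46.3, 59.4, 58.8 and 102 CPM in Erbb2-deficient tumors, and 144, 310, 330, 263 and 262 CPM in their adjacent samples. It held 37.0, 0, 161, 17.1 and 32.2 CPM in control tumors, and 174, 171, 272, 163 and 168 CPM in control adjacent samples. All tumors lay below all adjacent samples in both genotypes, with control tumor 3 at 161 CPM just under control adjacent sample 4 at 163 CPM. Bcas1os2 fell by 1.99 ± 0.63 on the log2 scale in Erbb2-deficient mice (adjusted p = 0.0239) and fell by 1.94 ± 0.64 in control mice (adjusted p = 0.0343). The call in control mice was lost without any one of 5 libraries, and the call in Erbb2-deficient mice without any one of 4, while without control tumors 2 and 3 the log2 fold change was -1.93 ± 0.26 in Erbb2-deficient mice (adjusted p = 6.21e-06) and -2.71 ± 0.34 in control mice (adjusted p = 3.18e-06). With no filter on low counts, the row passed in neither genotype, at an adjusted p of 0.115 in Erbb2-deficient mice and 0.160 in control mice.

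The Bcas1 row ranged over 1.51 to 8.19 CPM in Erbb2-deficient tumors and 12.8 to 28.3 CPM in their adjacent samples. It ranged over 0 to 11.04 CPM in control tumors and 3.58 to 18.5 CPM in control adjacent samples. The groups were separate in Erbb2-deficient mice and overlapped in control mice. Bcas1 fell by 2.07 ± 0.55 on the log2 scale in Erbb2-deficient mice (adjusted p = 0.00837), and in control mice its log2 fold change was -1.63 ± 0.59 (adjusted p = 0.0550), or -2.17 ± 0.58 without control tumors 2 and 3 (adjusted p = 0.00630). DESeq2 called that fall in control mice (adjusted p = 0.0206). Per kilobase of exon, the level of Bcas1os2 was a median of 43.9 times that of Bcas1 over 19 libraries, with a range of 14.5 to 146. By group the median ratio was 54.7 in Erbb2-deficient tumors, 38.5 in Erbb2-deficient adjacent samples, 43.8 in the 4 control tumors with counts and 60.8 in control adjacent samples, so the order of the pair was the same in every group. Of the other members, Zg16 has 2 genes annotated opposite it, Gm44939 and Gm22747, with 0 shared exon bases, and the remaining 6 have none.

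**Figure D3:**
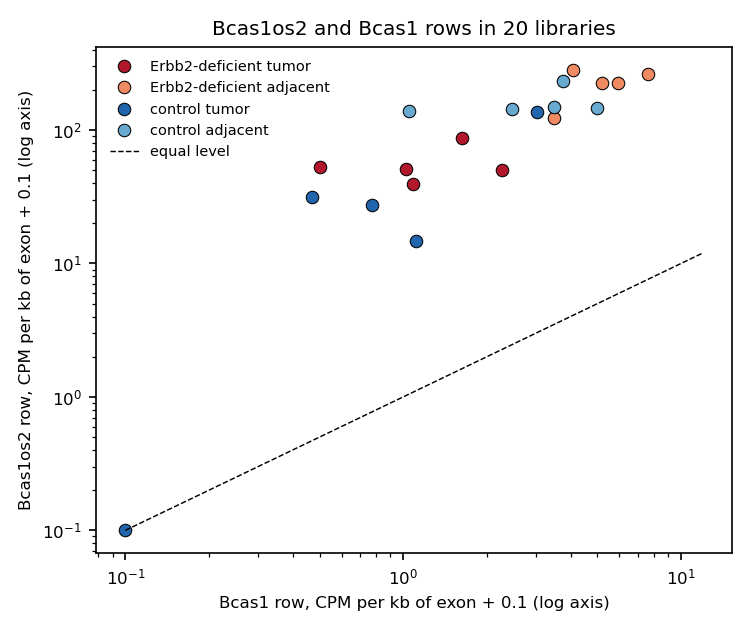
Level per kilobase of exon of the Bcas1os2 row against the Bcas1 row, in CPM per kilobase plus 0.1 on log axes, 1 point per library and coloured by group. All 19 libraries with counts lie above the dashed line of equal level, with a median ratio of 43.9.

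To see whether members moved by other amounts than the mucin, each library's log2 ratio of a member to Muc2 was compared between tumor and adjacent tissue with a two-sided exact permutation test, 16 tests in all, with a prior of 2 CPM. None passed at an adjusted p under 0.05, and 3 had an unadjusted p under 0.05; the smallest p that 5 against 5 libraries allow is 0.00794. The Spink4 to Muc2 log2 ratio averaged -1.70 ± 0.92 in Erbb2-deficient tumors and -3.46 ± 0.67 in their adjacent samples (SD, n = 5 each), a difference of 1.77 (exact permutation p = 0.0159, adjusted p = 0.127). In control mice it averaged -1.29 ± 1.72 in tumors and -3.77 ± 1.22 in adjacent samples, a difference of 2.48 (exact permutation p = 0.0317, adjusted p = 0.169), or 3.03 without control tumors 2 and 3 (exact permutation p = 0.0179, the smallest that 3 against 5 allow, adjusted p = 0.0952). The Zg16 to Muc2 log2 ratio averaged -3.67 ± 0.75 in Erbb2-deficient tumors and -2.57 ± 0.20 in their adjacent samples, a difference of -1.10 (exact permutation p = 0.0159, adjusted p = 0.127), and in control mice the difference was 0.45 (exact permutation p = 0.762, adjusted p = 0.863). The other 13 ratio differences had unadjusted exact permutation p-values above 0.05. Control tumor 2, with 0 counts in all rows, enters these ratios at 0 by construction.

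**Figure D4:**
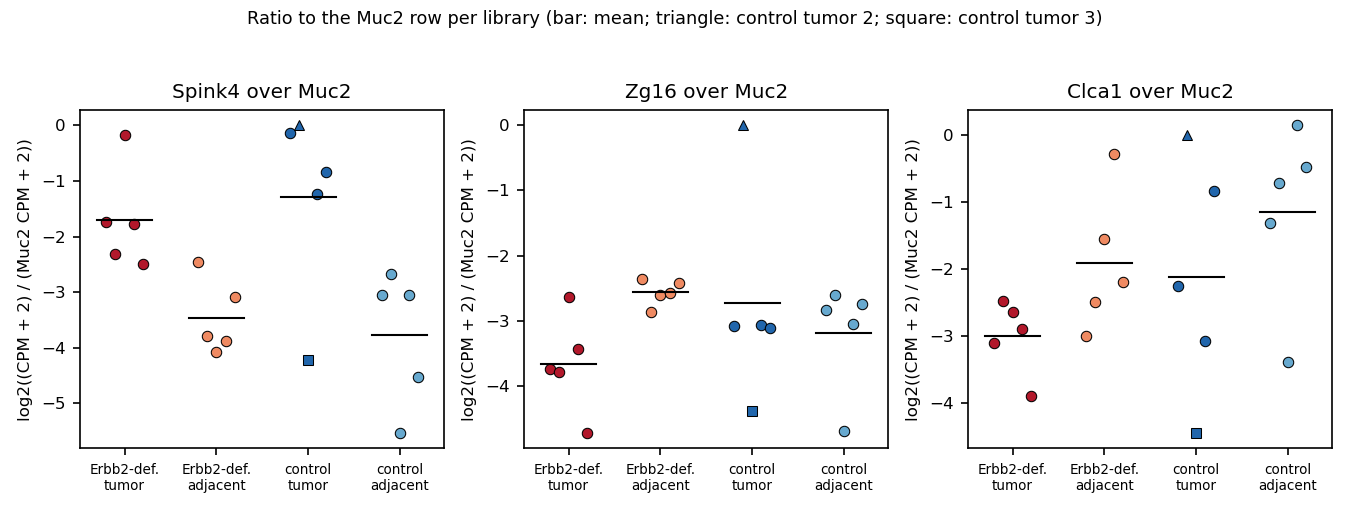
Log2 ratio of the Spink4, Zg16 and Clca1 rows to the Muc2 row in each library, with a prior of 2 CPM added to both, by group; the bar is the mean. The Spink4 ratio is higher in tumors than in adjacent samples on average in both genotypes, and control tumor 2 (triangle) lies at 0 because all its goblet rows were at 0.

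The level of the 9 rows also varied between tumors of one genotype, and mostly together. Summed over the 9 rows, Erbb2-deficient tumors held 90.8 to 468 CPM and their adjacent samples 730 to 1237 CPM. Control tumors held 0 to 773 CPM and control adjacent samples 358 to 1054 CPM. Muc2 and Bcas1os2 made up most of these sums, with means of 95.6 and 65.7 CPM of 231 CPM in Erbb2-deficient tumors. In control tumor 3 they held 483 and 161 CPM of 773 CPM, while its Clca1 and Fcgbp lay below every control adjacent sample. Erbb2-deficient tumor 5 was among the upper pair of its group in all 9 rows, tumor 4 in 7 of 9, and tumor 3 was the lowest in 6 of 9. Muc2 had a coefficient of variation of 96.2% among Erbb2-deficient tumors, and Bcas1os2 of 32.4%.

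Between genotypes, no goblet row passed the test. Within tumors, 0 of the 9 rows were called by edgeR or by DESeq2. Of all tested rows, DESeq2 called 0.295% lower and 0.0702% higher in Erbb2-deficient tumors. In the edgeR fit of all 20 libraries none of the 9 had an unadjusted p under 0.05. The background of rows called in that fit was 0.00%, with 817 of all 7119 rows at an unadjusted p under 0.05. The log2 fold changes of Erbb2-deficient over control tumors ran from -0.18 (Muc2) to 0.88 (Tff3), positive for 7 rows and negative for 2. Muc2 averaged 95.6 ± 92.0 CPM in Erbb2-deficient tumors and 108 ± 210 CPM in control tumors (SD, n = 5 each), and without control tumors 2 and 3 the fold change of that row was 2.32 ± 0.90 on the log2 scale (adjusted p = 0.572). All 9 were positive without those libraries, from 0.88 (Bcas1) to 2.75 (Zg16), and 0 were called. The largest relative to their standard errors were Bcas1os2 at 1.22 ± 0.32 (adjusted p = 0.529) and Agr2 at 2.30 ± 0.70 (adjusted p = 0.562, edgeR). The lowest adjusted p of the 9 rows in any fit was that of Agr2 without control tumor 3 alone, at 2.65 ± 0.69 (adjusted p = 0.0869, edgeR). Over all 20 libraries the tumor groups overlapped in all 9 rows, where 0.927% of all rows separated with Erbb2-deficient tumors higher and 1.19% with them lower. The sum of the 9 rows averaged 231 ± 154 CPM in Erbb2-deficient tumors and 203 ± 321 CPM in control tumors, or 80.2 ± 11.1 CPM in the 3 remaining control tumors.

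Within adjacent tissue, all 9 log2 fold changes of Erbb2-deficient over control mice were positive, from 0.11 (Clca1) to 1.39 ± 0.76 (Zg16, adjusted p = 0.884). Of these rows 0 were called by edgeR or DESeq2, with none at an unadjusted p under 0.05 in the edgeR fit of all 20 libraries. The background of rows called by edgeR was 0.00%, and 418 of all rows had an unadjusted p under 0.05. DESeq2 called 0.0702% of all rows lower and 0.00% higher. Zg16 was the 1 row whose groups did not overlap, at 27.2 to 71.5 CPM in Erbb2-deficient adjacent samples and 5.38 to 26.7 CPM in control adjacent samples, where 0.730% of all rows separated in that direction and 0.801% in the other. Spink4 had a log2 fold change of 1.26 ± 0.67 (adjusted p = 0.883) and Agr2 of 1.08 ± 0.66 (adjusted p = 0.894). Without control tumors 2 and 3 in the edgeR fit, the Zg16 value was 1.37 ± 0.47 (adjusted p = 0.340), and 0 of the 9 rows were called. For the interaction, which is the tumor-over-adjacent change in Erbb2-deficient mice minus that in control mice, values ran from -1.49 ± 1.23 (Zg16) to 0.31 (Clca1). The sign turned for 5 rows without control tumors 2 and 3, which became 1.97 ± 1.09 for Muc2, 1.38 ± 1.23 for Zg16, 1.25 ± 0.82 for Agr2, 0.16 ± 0.66 for Bcas1 and 0.78 ± 0.40 for Bcas1os2, so these data fix no direction. In the fit of all 20 libraries none was called by edgeR or DESeq2 or had an unadjusted p under 0.05, with 0.00% of rows called and 290 rows at an unadjusted p under 0.05. A difference between genotypes in how these rows fell was therefore not detectable with these libraries.

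Among other genes of the goblet programme, chosen with results of these data already known, few had counts enough to test. Of 37 regulators and secretory genes, 13 passed the filter; in Erbb2-deficient mice 4 fell and 2 rose, and in control mice 3 fell and 1 rose. The shares of all tested rows called higher were 13.0% in Erbb2-deficient mice and 10.7% in control mice, beside the 14.5% and 10.9% called lower. With control tumors 2 and 3 left out, 5 fell and 3 rose in Erbb2-deficient mice and 6 fell and 1 rose in control mice. The shares of all rows called lower and higher were then 18.8% and 18.2% in Erbb2-deficient mice, and 17.3% and 14.7% in control mice. Klf4, a transcription factor of goblet cell maturation, averaged 16.8 CPM in Erbb2-deficient tumors and 81.8 CPM in their adjacent samples, with a log2 fold change of -2.28 ± 0.59 (adjusted p = 0.00656), and 16.2 CPM in control tumors and 64.1 CPM in control adjacent samples, with -1.99 ± 0.59 (adjusted p = 0.0198). Klf4 averaged 8.60 CPM in the control tumors other than 2 and 3, and without these its log2 fold change was -2.88 ± 0.35 (adjusted p = 2.08e-06). The glycosyltransferases St3gal4 and B3galt5, which extend mucin-type and other glycans, also fell in both genotypes, with log2 fold changes of -3.37 and -3.03 in Erbb2-deficient mice and -2.02 for each in control mice. St3gal4 shares 412 exon bases with 4930581F22Rik on the opposite strand. Creb3l1, a membrane-bound transcription factor of the secretory pathway, fell in Erbb2-deficient mice (-1.95 ± 0.58, adjusted p = 0.0166) and had -1.19 ± 0.59 in control mice (adjusted p = 0.156), or -2.002 ± 0.48 without control tumors 2 and 3 (adjusted p = 0.00269).

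The rows that moved the other way in the fit of all 20 libraries were Hes6 and Creb3l4. Hes6, a bHLH factor that counteracts Hes1, rose in both genotypes, at 33.7 CPM in Erbb2-deficient tumors against 9.06 CPM in their adjacent samples (log2 fold change 1.89 ± 0.46, adjusted p = 0.00435) and 25.3 CPM in control tumors against 7.44 CPM in control adjacent samples (1.77 ± 0.47, adjusted p = 0.0111). Hes6 averaged 37.3 CPM in the control tumors other than 2 and 3, with a log2 fold change of 2.32 ± 0.33. Creb3l4 rose in Erbb2-deficient mice (0.98 ± 0.34, adjusted p = 0.0375). The median log2 fold change of the 13 rows was -0.58 in Erbb2-deficient mice and -0.42 in control mice. Without control tumors 2 and 3, Capn9 also rose in Erbb2-deficient mice (log2 fold change 1.66 ± 0.59, adjusted p = 0.0309, edgeR). In that fit Slc35a1 also fell in both genotypes and Galnt7 in control mice. The lineage factors Atoh1, Spdef and Gfi1 and the factor Foxa3 averaged 3.25, 4.25, 1.20 and 2 counts per library and could not be tested.

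Of 24 other goblet products and surface genes, 7 passed the filter, with 2 lower in Erbb2-deficient mice, 1 lower in control mice and 0 higher in either. Of all tested rows, 14.5% were called lower in Erbb2-deficient mice and 10.9% in control mice. Without control tumors 2 and 3, 2 fell and 1 rose in Erbb2-deficient mice, where 18.8% of all rows fell and 18.2% rose. In control mice 2 then fell and 0 rose, where 17.3% of all rows fell and 14.7% rose. Mptx1, a pentraxin of the mucosa, averaged 0.144 CPM in Erbb2-deficient tumors and 19.9 CPM in their adjacent samples, and 0.190 CPM in control tumors and 12.3 CPM in control adjacent samples; its fitted log2 fold changes were -6.35 ± 0.91 in Erbb2-deficient mice (adjusted p = 7.06e-05) and -5.50 ± 0.97 in control mice (adjusted p = 0.000577), which rest on tumor libraries with next to no counts. Lypd8, a secreted protein that binds flagellated bacteria, fell by 1.98 ± 0.65 on the log2 scale in Erbb2-deficient mice (adjusted p = 0.0290) and had -1.64 ± 0.66 in control mice (adjusted p = 0.0821), or -2.11 ± 0.52 without control tumors 2 and 3 (adjusted p = 0.00393). No row of either list was called between genotypes or in the interaction.

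Promoter sequence from RefSeq (GRCm38.p6) was held for 4 of the 9 members, and all 4 are shown, 250 bases before to 50 bases after the annotated start, since rows of this list fell in tumors. Capitals mark matches to the E-box letters CAGCTG or to the caudal-type letters TTTATG, read on either strand; the forkhead letters TGTTTAC had no match.
Muc2, chr7:141690090-141690389, plus strand: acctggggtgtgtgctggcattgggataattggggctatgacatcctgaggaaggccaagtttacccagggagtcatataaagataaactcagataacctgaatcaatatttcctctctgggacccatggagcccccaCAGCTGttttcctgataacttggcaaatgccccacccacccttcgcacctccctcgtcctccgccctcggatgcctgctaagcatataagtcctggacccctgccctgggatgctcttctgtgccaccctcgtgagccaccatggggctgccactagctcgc
Fcgbp, chr7:28070986-28071285, plus strand: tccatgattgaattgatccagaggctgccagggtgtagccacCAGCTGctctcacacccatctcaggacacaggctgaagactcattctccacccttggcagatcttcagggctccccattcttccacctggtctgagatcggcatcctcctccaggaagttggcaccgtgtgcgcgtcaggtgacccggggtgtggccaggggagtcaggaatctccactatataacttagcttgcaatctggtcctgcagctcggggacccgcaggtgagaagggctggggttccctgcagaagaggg
Agr2, chr12:35992675-35992974, plus strand: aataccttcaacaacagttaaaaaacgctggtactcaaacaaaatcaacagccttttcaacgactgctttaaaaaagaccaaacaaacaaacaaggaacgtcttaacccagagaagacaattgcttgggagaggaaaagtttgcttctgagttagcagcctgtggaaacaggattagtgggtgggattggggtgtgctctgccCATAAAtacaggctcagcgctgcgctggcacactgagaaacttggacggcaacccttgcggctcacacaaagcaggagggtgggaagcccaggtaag
Bcas1os2, chr2:170356111-170356410, plus strand: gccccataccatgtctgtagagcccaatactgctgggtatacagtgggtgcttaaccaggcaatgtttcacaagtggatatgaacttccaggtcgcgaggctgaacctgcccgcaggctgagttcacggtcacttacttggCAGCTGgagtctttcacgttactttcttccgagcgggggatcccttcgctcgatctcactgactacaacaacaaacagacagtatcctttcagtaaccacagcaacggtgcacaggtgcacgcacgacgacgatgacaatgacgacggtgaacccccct
Muc2, Fcgbp and Bcas1os2 each held 1 CAGCTG, a palindrome that reads the same on both strands, and Agr2 held 1 TTTATG, as CATAAA on the strand shown. Of 32851 promoters of the same length, 16.3% held CAGCTG, 11.9% held TTTATG and 3.65% held TGTTTAC. A match describes letters and not a bound site.

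Markers of other cell types were compared in the same libraries. The 14 pan-epithelial rows summed to 426 to 795 CPM in Erbb2-deficient tumors and 444 to 923 CPM in their adjacent samples, and to 18.2 to 671 CPM in control tumors and 417 to 624 CPM in control adjacent samples. Of the 12 that could be tested, 2 fell in Erbb2-deficient mice (Cdx1 and Lgals4) and 1 in control mice (Cdx1), close to the shares of all rows called lower, 14.5% and 10.9%. When control tumors 2 and 3 were left out, 2 fell in Erbb2-deficient mice and 3 in control mice, and 1 rose in each. In control tumor 2, 11 of the 14 were at 0. The 5 absorptive colonocyte rows tested all fell in both genotypes, and their list of 14 summed to 25.7 to 77.4 CPM in Erbb2-deficient tumors and 204 to 483 CPM in their adjacent samples, and to 2.72 to 134 CPM in control tumors and 163 to 227 CPM in control adjacent samples. Of 15 smooth muscle rows tested, 12 fell in Erbb2-deficient mice and 13 in control mice; the list of 16 summed to 217 to 322 CPM in Erbb2-deficient tumors against 1258 to 1608 CPM in their adjacent samples, and to 190 to 583 CPM in control tumors against 1281 to 2769 CPM in control adjacent samples. Control tumor 3, the highest control tumor in the goblet rows, was also the highest in these lists, at 671 CPM pan-epithelial, 134 CPM absorptive and 583 CPM smooth muscle. The part of this tissue make-up in the fall of the goblet rows was not tested.

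**Figure D5:**
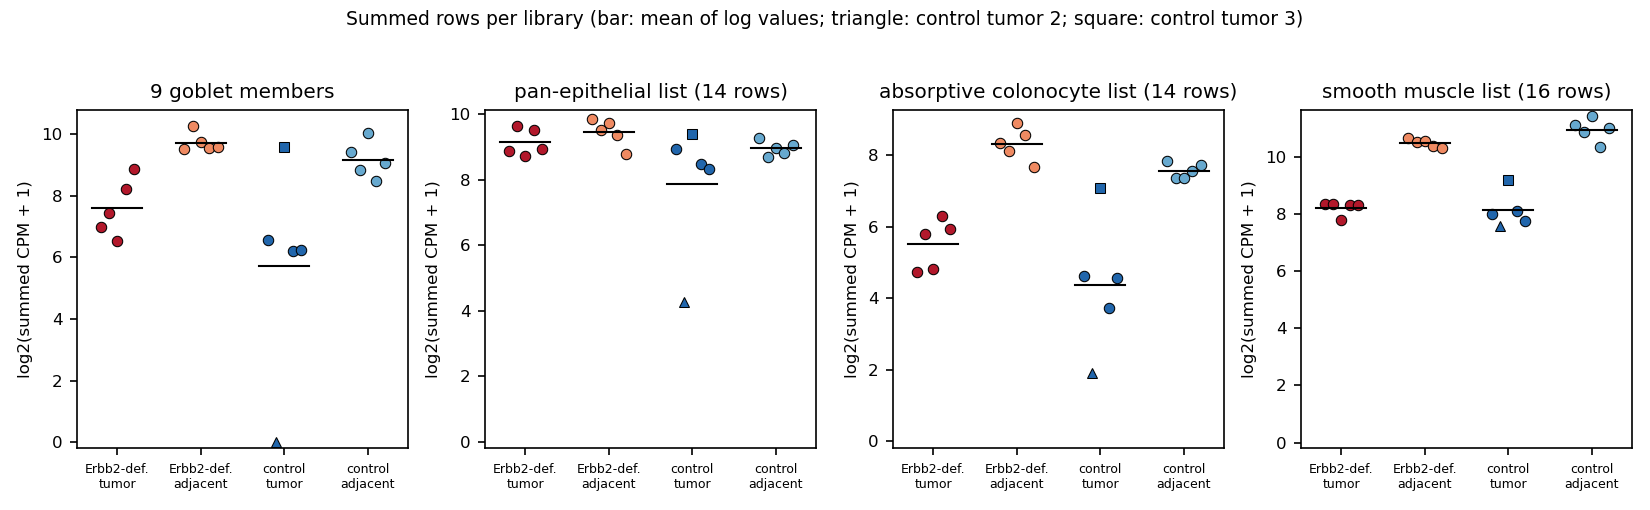
Summed level of the 9 goblet rows and of the pan-epithelial, absorptive colonocyte and smooth muscle lists in each library, as log2 of summed CPM plus 1, by group; the bar is the mean of the log values. The mean goblet, absorptive and smooth muscle sums are lower in tumors, although control tumor 3 (square) lies within the adjacent range of the goblet sum. Most of the goblet sum is Muc2 and Bcas1os2. Control tumor 2 (triangle) is low in the 3 epithelial panels.

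Among rows outside the list, those whose log2 CPM over 20 libraries was most like that of Muc2 were Cdx1 (Pearson r = 0.932), Gfus (0.932), Phgr1 (0.929), Cacna1h (0.926) and Pacsin1 (0.923). Without control tumors 2 and 3 the same correlations were 0.908, 0.874, 0.881, 0.878 and 0.893. Within the 10 adjacent libraries they were 0.837, 0.511, 0.790, 0.579 and 0.813, and within the 10 tumors 0.943, 0.958, 0.933, 0.959 and 0.915. Cdx1 is a homeobox factor of intestinal epithelium, and the Cacna1h row shares 158 exon bases with Tpsg1 on the opposite strand. The rows most like Bcas1os2 were Klf4 (r = 0.964), Pla2g10 (0.959), Spaca4 (0.951), Pde3a (0.948) and Rnf11 (0.944). Without control tumors 2 and 3 these correlations were 0.954, 0.904, 0.884, 0.895 and 0.885. Within the 10 adjacent libraries these were 0.624, -0.08, -0.15, 0.341 and 0.696, and within the 10 tumors 0.960, 0.971, 0.943, 0.928 and 0.978. For Pla2g10 and Spaca4 the likeness thus lay between the tissues and among tumors. The tumor correlations given for Muc2 and Bcas1os2 include control tumors 2 and 3, the lowest and the highest control tumor in all 9 goblet rows. All these values share library depth and the tumor-to-adjacent difference, and they describe these libraries.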

How the data were processed

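Stranded mRNA libraries (Illumina TruSeq, per the labels' protocols) were trimmed with Trimmomatic, aligned to mm39 with HISAT2 2.2.1 and counted with HTSeq 2.0.2, per the submitters' processing notes, which also name DESeq2. The values used are the deposited raw counts per gene symbol, as the authors' counter gave them; 5 summary rows per library were kept out of library sizes. The strand setting of the count step is not given in the sources used here. CPM are counts per 1000000 counts on the tested rows after TMM scaling.

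From there, edgeR 4.0.16 in R 4.3.3 was used: filterByExpr (minimum count 10), TMM scaling, a means model of the 4 groups, a robust quasi-likelihood F test and Benjamini-Hochberg adjustment over 7119 rows, with calls at an adjusted p under 0.05. DESeq2 1.42.0, other scalings, no filter, the replicate number as a block, only the groups compared, counts without mitochondrially encoded rows, and leaving out libraries were alternatives, of which leaving out control tumor 2 or 3 alone was picked for the text after seeing the data. Ratio tests used priors of 2, 0.5 and 5 CPM. Whether replicate numbers pair samples is not labelled, and no pairing was assumed. Whole counts were used as deposited, so intervals and tests cover the spread between libraries at 1071737 to 1944309 counts each. The fit was tested on simulated data.

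The members and lists were chosen with earlier results of these data known. All 9 members are named, with up to 8 rows of each goblet list and up to 4 of each other list, by smallest p in either tumor-against-adjacent comparison, and the 5 rows most like Muc2 and like Bcas1os2. Gene overlaps and exon lengths came from GENCODE M21 and promoters from RefSeq, both on GRCm38, and no coordinate was carried between builds.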

Additional observations from a re-analysis of the deposited data

Results flagged for a closer look

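In 36 groups of 5 libraries (9 rows by 4 groups), 7 held 1 library far above the other 4 by Dixon's test on the gap over the range, where chance gives about 1 in 20 groups of independent normal values. The rows share libraries and CPM is skewed, so that rate is only a guide, and on log2 CPM 2 of the 7 passed, Zg16 in control tumors and Bcas1os2 in control adjacent samples. Control tumor 3 was that library in 4 rows: Muc2 at 483 CPM against 0 to 22.8 CPM in the other control tumors, Zg16 at 21.2 CPM against 0 to 0.952 CPM, Agr2 at 20.2 CPM against 0 to 1.90 CPM, and Bcas1os2 at 161 CPM against 0 to 37.0 CPM. Control adjacent sample 3 was the flagged library in 2 rows, Muc2 at 623 CPM against 59.2 to 202 CPM and Bcas1os2 at 272 CPM against 163 to 174 CPM. Erbb2-deficient tumor 5 stood apart in Bcas1os2, at 102 CPM against 46.3 to 62.0 CPM.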

How the results depend on the processing

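The count of goblet rows called lower in control mice was 4; it became 8 once control tumors 2 and 3 were left out, where 17.3% of all rows were called lower, against 10.9%. It became 2 of 6 in a fit of just the groups compared, with 5.90% of rows lower, where Tff3, Agr2 and Bcas1 did not pass the filter and Bcas1os2 lost its call. Over libraries left out in turn it ran from 3 to 8, with 8.17% to 14.5% of rows lower, the 8 and the 14.5% without control tumor 3. In Erbb2-deficient mice, where it was 6 with 14.5% of rows lower, it ran from 5 to 7, with 10.4% to 19.3% of rows lower. Clca1 and Fcgbp were called in both genotypes, and Zg16 in Erbb2-deficient mice, under all 28 alternatives. Scaling by library totals moved the median log2 fold change of all tested rows to 0.13 in Erbb2-deficient mice, against -0.06, to 0.17 in control mice, against 0.07, and to 0.18 for genotype within tumors, against -0.01; Bcas1os2 then lost its call in control mice.

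Bcas1os2 lost its call in control mice without control adjacent sample 3 or 5 or control tumor 1, 4 or 5, and in Erbb2-deficient mice without Erbb2-deficient tumor 1, 2, 3 or 4. Leaving out control tumor 3, the highest control tumor in each of these rows, brought Muc2, Zg16, Agr2 and Bcas1 past the threshold in control mice. The labels do not say whether numbers pair samples: tumor and adjacent deviations of the same number correlated over 0.1 in 3 of 5 pairs in each genotype, at most 0.370 (control 1), which neither shows nor excludes it. Best correlated with their own number were 1 of 5 tumors and 3 of 5 adjacent samples in Erbb2-deficient mice, and 3 of 5 of each in control mice. With the replicate block 5 rows were called in control mice, with 11.3% of rows lower, Muc2 being added at an adjusted p of 0.0470, and 6 in Erbb2-deficient mice, with 14.5% of rows lower; Spink4 then had a log2 fold change of -0.0834 in control mice, against 0.05.

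Values that changed sign were not called in any fit. For genotype within tumors, Muc2 was 2.32 without control tumors 2 and 3 and 1.96 with the block, and Zg16 was 0.0508 with library totals, 2.75 without control tumors 2 and 3 and 0.74 with the block. For the interaction without control tumors 2 and 3, Muc2 was 1.97, Zg16 1.38, Agr2 1.25, Bcas1 0.16 and Bcas1os2 0.78, and with the block Muc2 was 0.45, Agr2 0.14 and Bcas1os2 0.74. The Zg16 to Muc2 ratio in control mice was -0.21 with a prior of 0.5 CPM. The causes were not tested.

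Ranges over libraries left out in turn were, for Spink4, -0.35 to 0.43 in control mice and -0.74 to 0.00763 in Erbb2-deficient mice; for genotype within tumors, -0.88 to 2.72 for Muc2, -0.67 to 3.06 for Zg16 and -0.0122 to 1.24 for Bcas1; for genotype within adjacent tissue, -0.22 to 0.27 for Clca1; and for the Zg16 to Muc2 ratio in control mice, -0.23 to 0.86. For the interaction they were -1.37 to 2.37 for Muc2, -0.16 to 0.84 for Fcgbp, -0.27 to 0.94 for Tff3, -2.04 to 1.69 for Zg16, -0.79 to 0.0375 for Spink4, -0.68 to 1.60 for Agr2, -0.73 to 0.52 for Bcas1 and -0.34 to 1.19 for Bcas1os2.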

Other observations

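Other secretory lineages of the colon had few rows with counts enough to test. Of all tested rows, 14.5% were called lower and 13.0% higher in Erbb2-deficient mice, and 10.9% and 10.7% in control mice. Of 3 enteroendocrine rows tested, 1 fell in each genotype: Chga, a granule protein of enteroendocrine cells, averaged 3.22 CPM in Erbb2-deficient tumors and 17.1 CPM in their adjacent samples (log2 fold change -2.37 ± 0.74, adjusted p = 0.0218, edgeR), and 0.905 CPM in control tumors and 14.1 CPM in control adjacent samples (-3.87 ± 0.93, adjusted p = 0.00591). Of 3 rows of Paneth and deep crypt secretory genes tested, 1 rose in each genotype: Lyz1, the lysozyme of Paneth cells, averaged 39.2 CPM in Erbb2-deficient tumors and 0.132 CPM in their adjacent samples (adjusted p = 2.22e-05), and 16.0 CPM in control tumors and 0.197 CPM in control adjacent samples (adjusted p = 0.000435). Of 3 crypt stem rows tested, 1 rose in each genotype: the Wnt target Axin2 averaged 39.6 CPM in Erbb2-deficient tumors and 2.52 CPM in their adjacent samples (adjusted p = 0.000595), and 19.7 CPM in control tumors and 2.36 CPM in control adjacent samples (adjusted p = 0.00802), and it shares 209 exon bases with Gm11670 on the opposite strand. Of 5 fibroblast and matrix rows tested, 3 rose in Erbb2-deficient mice and 0 in control mice, and of 7 B cell and MHC class II rows tested, 2 rose and 1 fell in Erbb2-deficient mice and 1 rose in control mice. No row of these lists was called between genotypes or in the interaction. The B cell and MHC class II list summed to 1767 CPM in control tumor 2. Without control tumors 2 and 3 the control tumors averaged 0.282 CPM for Chga, 23.3 CPM for Lyz1 and 31.6 CPM for Axin2. In that fit 1 enteroendocrine row fell while 2 Paneth, 2 crypt stem and 1 fibroblast rows rose in control mice. In Erbb2-deficient mice 2 enteroendocrine rows fell while 2 Paneth, 2 crypt stem and 5 fibroblast rows rose. Of the B cell and MHC class II rows, 1 fell and 1 rose in control mice, and 2 fell and 2 rose in Erbb2-deficient mice. The shares of all rows called lower and higher were then 17.3% and 14.7% in control mice, and 18.8% and 18.2% in Erbb2-deficient mice.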
